A study of Mus musculus with 12 samples.

Results

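Interferon response genes are described here in mouse embryonic stem cells (ESCs) with and without *Meteor*, an enhancer from which a long noncoding RNA is transcribed. The genes are *Ifit1*, *Ifit2*, *Ifit3*, *Ifitm1*, *Ifitm2*, *Ifitm3*, *Isg15*, *Irf1* and *Irf7*, 9 of the 46517 genes in the count tables, and they were taken by name through their Ensembl identifiers. They were chosen with the KO and WT values in view, for a pattern in which *Ifit3* was higher in KO cells while the others were not. Differences between KO and WT cells are therefore given for them as a description, without a test. Of the 9 genes, 8 reached more than 1 CPM (read counts scaled to the library's total) in some sample and entered the fit with 15673 genes in all, and *Irf7* did not.

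RNA was sequenced from 12 samples, 3 of each of 4 groups, all of the *Eomes*-EGFP reporter ESC line on a C57BL/6 background, which carries the EGFP reporter in WT and KO cells alike. The WT day 0 and KO day 0 groups were undifferentiated ESCs grown on mouse embryonic fibroblast feeders, and the WT day 3 and KO day 3 groups were embryoid bodies, aggregated in hanging drops, at day 3 of cardiac differentiation. In KO cells the *Meteor* enhancer had been deleted with a Cas9 nickase and puromycin selection, together with the start of its noncoding RNA. The KO line was 1 clone, so that the deletion and any other feature of that clone cannot be told apart. Nothing in the labels says that the 3 samples of a group came from separate cultures, so p-values measure the spread between these samples, which may be technical.

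Interferons are secreted proteins that cells release when they sense foreign nucleic acid. They bind receptors coupled to the kinases Jak1, Jak2 and Tyk2 and, through these, to transcription factors that enter the nucleus. The factors bind the interferon-stimulated response element (ISRE) or the gamma-activated site (GAS) near the start of their target genes. Pluripotent stem cells are known to respond weakly to interferon, and to hold some interferon-stimulated genes, the Ifitm genes among them, at a high level of their own. Ifit proteins bind viral RNA, Ifitm proteins hinder viral entry through membranes, Isg15 is a ubiquitin-like protein that is conjugated to other proteins, and Irf1 and Irf7 are transcription factors of the response.

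The starts of these genes are shown first because ISRE-type matches lay both in genes that were higher and in genes that were lower in KO cells. Each stretch was read from the RefSeq promoter table of GRCm38.p6, 5′ to 3′ on the strand of the gene, and capitals mark matches to an ISRE-type motif, in which GAAA is followed by 2 bases of any kind and GAAA again, or to a GAS-type motif, TTCNNNGAA, both searched on either strand. *Ifit3* (chr19:34583353-34583436, plus strand) and its neighbour *Ifit3b* (chr19:34607749-34607832, plus strand), 2 genes that were higher in KO cells, have identical stretches over 84 of 84 bases with 2 ISRE-type matches. *Ifit1* (chr19:34640765-34640833, plus strand) has 2 as well. *Isg15* (chr4:156200855-156200916, minus strand) has 3 overlapping matches in 1 run and *Gbp2* (chr3:142620584-142620633, plus strand) has 1, and both genes were lower in KO cells. *Irf1* (chr11:53769904-53769952, plus strand) has a GAS-type match and no ISRE-type match in its window.
Ifit3: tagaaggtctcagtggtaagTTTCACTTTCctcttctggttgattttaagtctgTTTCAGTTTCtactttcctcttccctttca
Ifit3b: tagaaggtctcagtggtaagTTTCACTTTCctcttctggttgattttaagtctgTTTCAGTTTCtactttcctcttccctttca
Ifit1: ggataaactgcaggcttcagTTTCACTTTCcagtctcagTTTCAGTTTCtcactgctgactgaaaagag
Isg15: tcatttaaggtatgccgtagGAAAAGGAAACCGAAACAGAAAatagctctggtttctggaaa
Gbp2: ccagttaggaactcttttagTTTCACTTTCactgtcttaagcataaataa
Irf1: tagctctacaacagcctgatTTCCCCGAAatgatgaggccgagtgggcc

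The windows ran from 250 bases before to 50 bases after the start. An ISRE-type match was found in 3.4% of 32817 distinct mouse promoters and a GAS-type match in 8.3%. Of 43 other interferon-stimulated genes with a promoter in the table, 24 (55.8%) had an ISRE-type match and 9 (20.9%) a GAS-type match, beside 4.0% and 9.6% of 26994 genes. *Ifitm2* has 1 ISRE-type match before its start, and *Ifitm3* has 2 after its start with a GAS-type match that overlaps the later of them. *Ifit2* has a GAS-type match, and no match to either motif lay in the windows of *Ifitm1* and *Irf7*. A match is a description of the letters and not evidence of a bound site.

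**Figure D1:**
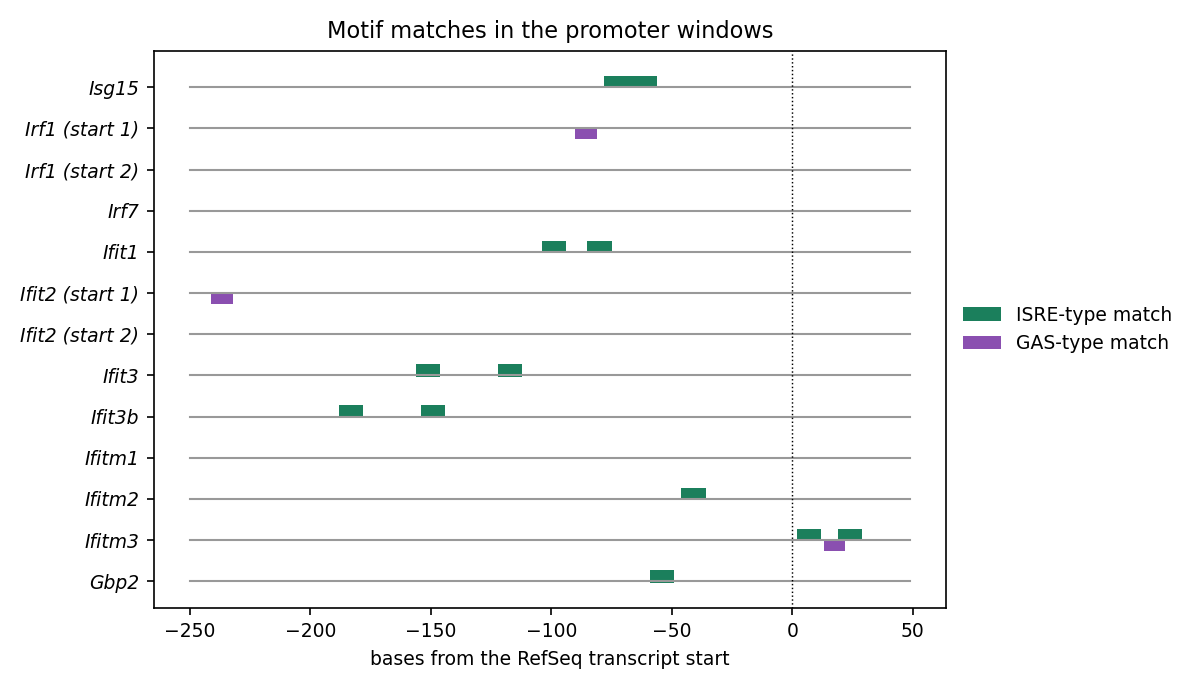
Positions of ISRE-type (green) and GAS-type (purple) matches in the windows of the 9 genes, *Ifit3b* and *Gbp2*, with the distance from the RefSeq start in bases on the x axis and 2 starts each for *Irf1* and *Ifit2*. The matches of *Ifit3* and *Ifit3b* keep the same spacing, and those of *Ifitm3* lie after the start.

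The genes fall in 4 places in GRCm38. *Ifit2* (ENSMUSG00000045932, chr19:34550694-34576419), *Ifit3* (ENSMUSG00000074896, chr19:34583531-34588731) and *Ifit1* (ENSMUSG00000034459, chr19:34640871-34650009) lie in a row on the plus strand of chromosome 19. *Ifitm2* (ENSMUSG00000060591, chr7:140954837-140955987, minus strand), *Ifitm1* (ENSMUSG00000025491, chr7:140967221-140969825, plus strand) and *Ifitm3* (ENSMUSG00000025492, chr7:141009586-141010770, minus strand) lie together on chromosome 7, with *Irf7* (ENSMUSG00000025498, chr7:141262706-141266481, minus strand) further along it. *Isg15* (ENSMUSG00000035692, chr4:156199424-156200818) is on the minus strand of chromosome 4, and *Irf1* (ENSMUSG00000018899, chr11:53770014-53778374) on the plus strand of chromosome 11.

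The gene counts of a sample summed to 17455927 to 23910943 reads. The 2 annotated transcripts of the *Meteor* locus were nearly without reads in KO cells, *2610509F24Rik* with 0 in all 6 KO samples against 29 to 107 in WT samples and *Platr11* with at most 1 against 11 to 112. Some libraries stood apart from their group. WT day 0 replicate 3 had *T*, a primitive streak gene, at 77.3 CPM against 4.64 and 6.41 CPM in the other WT day 0 samples, WT day 3 replicate 3 had *T* at 269 CPM against 692 and 612 CPM, and KO day 0 replicate 3 had the highest *Ifit1*, *Ifit3* and *Irf7* of the 12 samples. Other interferon-stimulated genes were also highest in KO day 0 replicate 3, among them *Ifit3b*, *Rsad2*, *Ifi44*, *Ifi204* and *Mx1*. Summed fibroblast markers (12 genes) ranged from 102 to 348 CPM in WT day 0, 156 to 445 CPM in KO day 0, 60.0 to 99.0 CPM in WT day 3 and 47.6 to 99.1 CPM in KO day 3. By replicate number 1, 2 and 3 the day 0 sums were 156, 445 and 303 CPM in KO against 102, 348 and 185 CPM in WT. KO was thus higher in each same-numbered pair. None of the 11 fibroblast markers tested was called at day 0 between KO and WT in edgeR's test. Their median log2 fold change was 0.44, and 4 had an unadjusted p below 0.05. At day 3, 3 of the 11 were higher in KO and 3 lower, with log2 fold changes of −2.50 (*Twist2*) to 2.51 (*Dcn*), and 1 of 2 tested immune cell markers was higher. The summed immune cell markers (6 genes) were at 3.33 to 8.20 CPM at day 0 and at most 1.79 CPM at day 3. At day 3 the 5 primitive streak markers summed to 616 to 1430 CPM in WT and 74.0 to 148 CPM in KO, and the 5 pluripotent cell markers to 584 to 1109 CPM in WT and 1088 to 1182 CPM in KO. At day 0 the pluripotent cell markers summed to 2364 to 2735 CPM in WT and 3124 to 3359 CPM in KO. The part of feeder cells, immune cells or the state of differentiation in the results below was not tested, and fewer cells of a type and less RNA per cell cannot be told apart in these samples.

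The 9 genes spanned a wide range of levels. As mean CPM per kilobase of exon ± SD (n = 3) in WT day 0, *Ifitm2* was at 269.5 ± 12.4, *Ifitm3* at 149.6 ± 23.4 and *Ifitm1* at 126.5 ± 11.3. *Irf1* was at 10.9 ± 5.08 and *Isg15* at 5.03 ± 3.83, followed by *Ifit2* at 0.993 ± 0.271, *Ifit1* at 0.318 ± 0.153, *Irf7* at 0.0610 ± 0.0214 and *Ifit3* at 0.0409 ± 0.0187. In this order the samples of *Ifitm3* and *Ifitm1* overlapped, as did those of *Irf1* and *Isg15* and those of *Irf7* and *Ifit3*. In KO day 0, *Ifit3* was at 0.936 ± 0.988, *Isg15* at 0.733 ± 0.320, *Ifit2* at 0.605 ± 0.260 and *Ifit1* at 0.501 ± 0.632 CPM per kilobase, and the samples of these 4 genes overlapped. The KO mean of *Ifit3* rests on KO day 0 replicate 3, at 3.62 CPM against 0.728 and 0.551 CPM, so its place among these 4 genes depends on that sample.

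**Figure D2:**
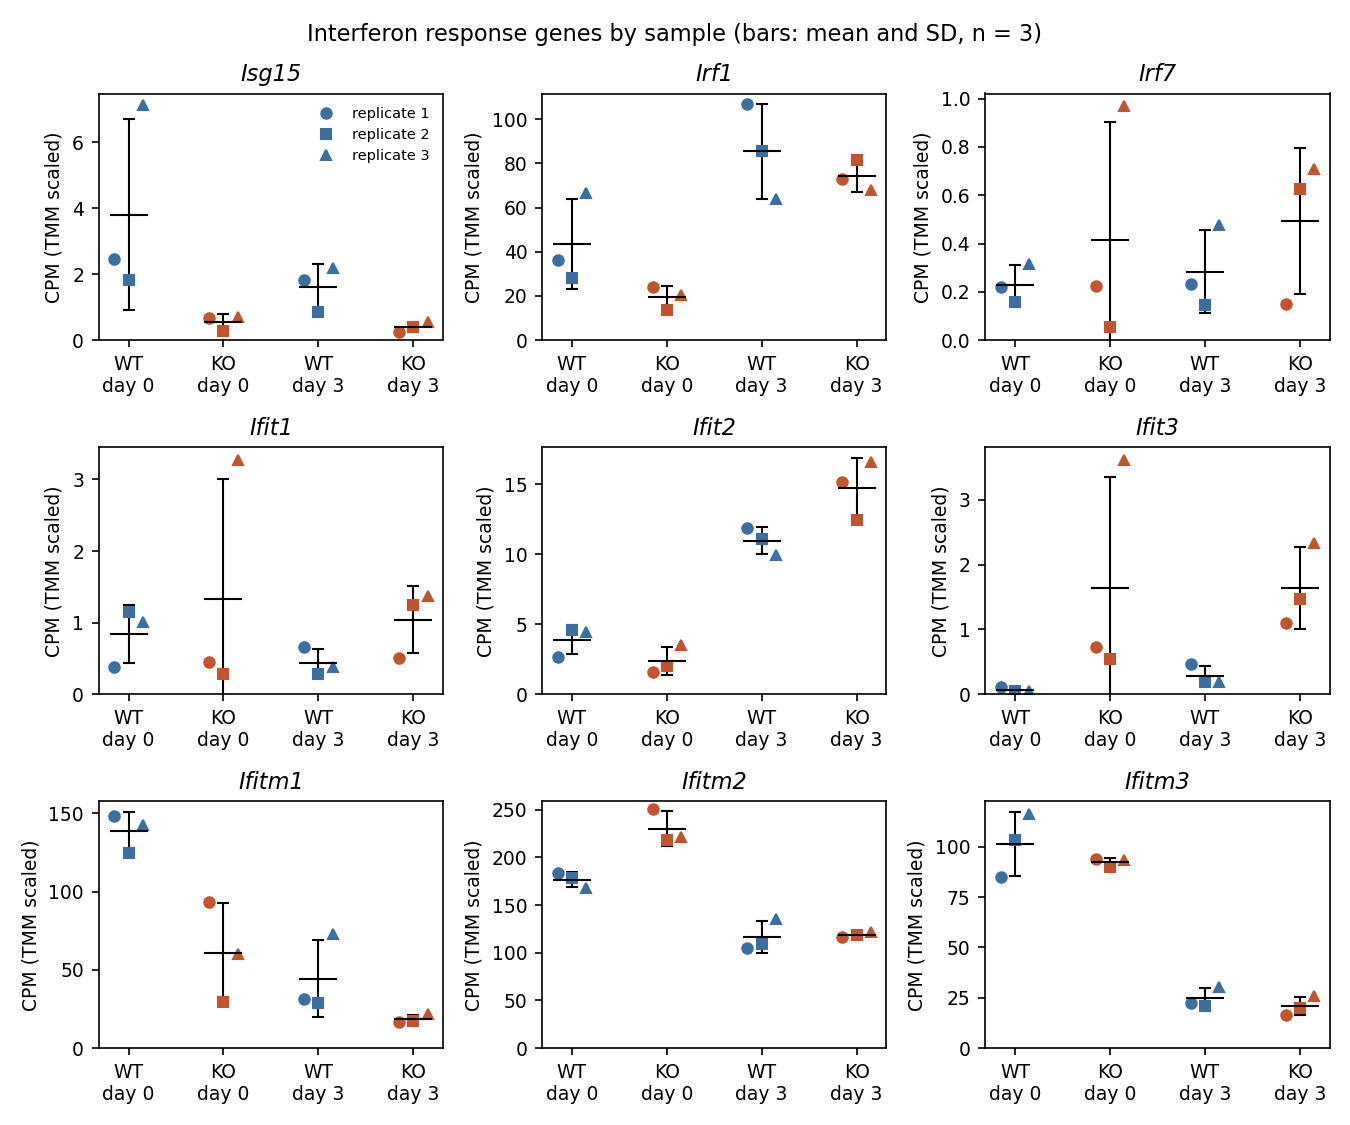
TMM-scaled CPM of the 9 genes in every sample (y axis, each panel on its own scale from 0), with WT in blue, KO in orange, a symbol for each replicate number, and the mean and SD (n = 3) in black, drawn down to 0 where the SD is larger than the mean. *Ifit3* is higher in all KO samples than in all WT samples of the same day, *Isg15* and *Ifitm1* are lower, and *Ifit2* rises from day 0 to day 3.

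In undifferentiated cells all KO samples lay above all WT samples for *Ifit3* and *Ifitm2* and below them for *Isg15*, *Ifitm1* and *Irf1*. At day 3 they lay above for *Ifit3* and *Ifit2* and below for *Isg15* and *Ifitm1*, and for the other genes the groups overlapped. Over all tested genes 20.4% differed between KO and WT at day 0 and 30.9% at day 3 (edgeR adjusted p below 0.05). These shares are for edgeR's test and cannot be set beside the lack of overlap, whose share over all genes is not given here. Because the genes were chosen on this contrast, nothing is read from their counts.

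*Ifit3*, a tetratricopeptide-repeat gene of the Ifit family, had 0.109, 0.0521 and 0.0528 CPM in the 3 WT day 0 samples and 0.728, 0.551 and 3.62 CPM in the KO day 0 samples. At day 3 the WT samples had 0.466, 0.192 and 0.190 CPM and the KO samples 1.10, 1.48 and 2.33 CPM. WT and KO samples did not overlap on either day, and KO day 0 replicate 3 stood well above the other KO day 0 samples. The log2 fold change of KO over WT was 4.19 ± 0.81 (SE) at day 0 and 2.44 ± 0.63 at day 3. These folds rest on few reads, 94 in KO against 4 in WT at day 0 and 104 against 18 at day 3, and the ratios of the summed reads, scaled for depth, were 23.9 (95% exact binomial interval 9.01 to 89.4) and 5.93 (3.57 to 10.4), for counting error only. Without KO day 0 replicate 3 the log2 fold change at day 0 was 3.16, and over the samples left out in turn it was 3.16 to 4.76 at day 0 and 1.74 (without WT day 3 replicate 3) to 3.31 (without WT day 3 replicate 1) at day 3. *Ifit3* exceeded 1 CPM in KO samples only, so it passed the filter through the group in which it was high.

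*Ifit3* shares sequence with *Ifit3b*: 31.7% of its stretches of 100 exonic bases also occur in *Ifit3b*. Reads that aligned to several places were not counted, so both counts are uncertain to that extent. *Ifit3b* is listed below among the other interferon-stimulated genes and moved the same way.

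*Ifit1* and *Ifit2* lie beside *Ifit3*. *Ifit1*, which binds the unmethylated caps of foreign RNA, had 0.382, 1.15 and 1.00 CPM in WT day 0 and 0.448, 0.275 and 3.27 CPM in KO day 0, and the groups overlapped. At day 3 it had 0.652, 0.289 and 0.381 CPM in WT and 0.500, 1.25 and 1.37 CPM in KO, again with overlap. Its log2 fold changes were 0.38 ± 0.73 at day 0, where the sign depended on 1 library (−1.04 without KO day 0 replicate 3), and 1.08 ± 0.77 at day 3, where it was between 0.51 (without WT day 3 replicate 3) and 2.03 (without WT day 3 replicate 1). *Ifit2*, whose human counterpart binds AU-rich RNA, had 2.67, 4.59 and 4.43 CPM in WT day 0 and 1.57, 2.04 and 3.52 CPM in KO day 0, with overlap and a log2 fold change of −0.73 ± 0.28. At day 3 its KO samples had 15.2, 12.4 and 16.6 CPM and its WT samples 11.8, 11.1 and 9.94 CPM. All KO samples lay above all WT samples at day 3, with a log2 fold change of 0.41 ± 0.25, which was 0.23 without WT day 3 replicate 3, 0.24 without KO day 3 replicate 1 and 0.63 without WT day 3 replicate 1.

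*Isg15*, which is attached to other proteins as ubiquitin is, was lower in KO cells on both days. It had 2.45, 1.82 and 7.13 CPM in WT day 0 and 0.672, 0.275 and 0.714 CPM in KO day 0. At day 3 it had 1.82, 0.866 and 2.19 CPM in WT and 0.2498, 0.398 and 0.541 CPM in KO. The groups did not overlap on either day. The log2 fold changes were −2.65 ± 0.39 at day 0 and −2.02 ± 0.42 at day 3. *Isg15* exceeded 1 CPM in WT samples only, so it passed the filter through the cells in which it was high. Summed reads were 31 in KO against 215 in WT at day 0 and 25 against 103 at day 3, and leaving out any single sample gave log2 fold changes of −2.95 to −2.24 and of −2.40 to −1.77.

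The 3 Ifitm genes differed from each other. *Ifitm1*, which is also expressed in primordial germ cells, had 148, 125 and 142 CPM in WT day 0 and 93.2, 29.6 and 60.1 CPM in KO day 0, and 31.3, 29.0 and 72.6 CPM in WT day 3 against 16.5, 17.3 and 21.9 CPM in KO day 3. Its KO samples were below its WT samples on both days, with log2 fold changes of −1.26 ± 0.33 and −1.18 ± 0.34, the latter −0.73 without WT day 3 replicate 3. *Ifitm2* had 184, 178 and 168 CPM in WT day 0 and 251, 218 and 221 CPM in KO day 0, all KO samples being higher (log2 fold change 0.38 ± 0.10), and at day 3 it overlapped at 105, 109 and 135 CPM in WT and 117, 119 and 121 CPM in KO (0.04 ± 0.10). Of its 100-base stretches 34.9% also occur in other genes, and its exons overlap *Gm45717* on the same strand, so its counts carry that uncertainty. *Ifitm3*, the family member best known for restricting influenza virus, had 84.7, 103 and 116 CPM in WT day 0 and 93.9, 90.1 and 93.3 CPM in KO day 0, with a log2 fold change of −0.12 ± 0.12, and at day 3 of −0.25 ± 0.13, with overlap on both days.

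Of the transcription factors, *Irf1*, an activator that responds to interferon gamma, had 36.2, 28.0 and 66.4 CPM in WT day 0 and 24.0, 13.7 and 20.4 CPM in KO day 0. The groups did not overlap, and the log2 fold change was −1.16 ± 0.31, or −0.66 without WT day 0 replicate 3, whose *Irf1* was the highest of its group. At day 3 *Irf1* had 107, 85.5 and 63.8 CPM in WT and 72.9, 81.4 and 67.9 CPM in KO, with overlap (−0.20 ± 0.29). *Irf7*, the factor that amplifies interferon production, stayed under 1 CPM in every sample, from 0.0551 CPM to 0.969 CPM. It had 24 summed reads in KO and 13 in WT at day 0, and 31 and 18 at day 3. The 95% exact binomial intervals of the ratios were 0.917 to 4.01 and 0.958 to 3.36, for counting error only. Of the 24 reads in KO day 0, 19 were in KO day 0 replicate 3.

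**Figure D3:**
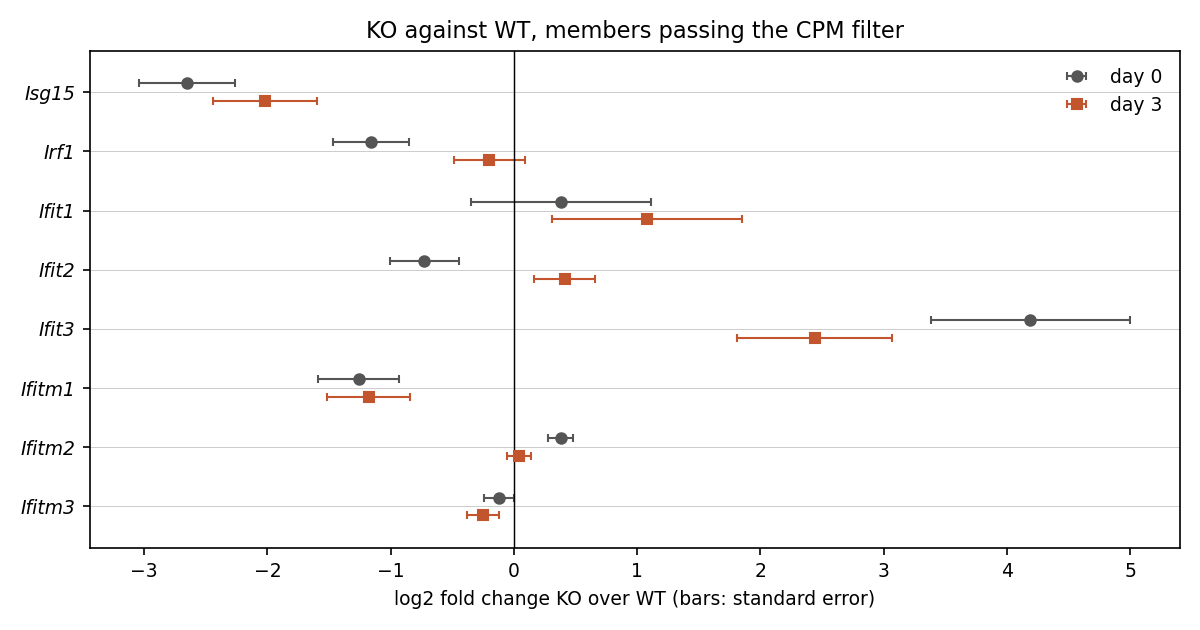
Log2 fold change of KO over WT (x axis, bars are standard errors, n = 3 per group) for the 8 genes in the fit at day 0 (grey circles) and day 3 (orange squares). *Ifit3* lies furthest right on both days, at 4.19 and 2.44, and *Isg15* furthest left, at −2.65 and −2.02.

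The genes other than *Ifit3* were not chosen for their change from day 0 to day 3, but values of both days were in view. The p-values of this change are therefore a description. They are given for all of the genes but *Ifit3* and *Irf7*. In WT cells 56.2% of all tested genes were called and in KO cells 56.6%, so that a change over time was common. *Ifit2* and *Irf1* rose and *Ifitm1*, *Ifitm2* and *Ifitm3* fell in both, *Isg15* fell in WT, and *Ifit1* did not pass the test in either.

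*Ifit2* rose by 1.52 ± 0.27 on the log2 scale in WT (edgeR adjusted p = 9.65e-04) and by 2.66 ± 0.28 in KO (edgeR adjusted p = 3.25e-05), and all day 3 samples lay above all day 0 samples. *Irf1* rose in KO by 1.97 ± 0.31 (edgeR adjusted p = 4.00e-04), without overlap. In WT its rise of 1.00 ± 0.30 (edgeR adjusted p = 0.0166) came with overlap and was not called without WT day 0 replicate 1 or 2 or WT day 3 replicate 1 or 2, the largest edgeR adjusted p being 0.0859. *Ifitm3* fell in both, with log2 fold changes of −2.04 ± 0.13 in WT (edgeR adjusted p = 2.57e-06) and −2.18 ± 0.13 in KO (edgeR adjusted p = 9.65e-07). *Ifitm1* fell by 1.72 ± 0.34 in WT (edgeR adjusted p = 0.00174) and by 1.65 ± 0.35 in KO (edgeR adjusted p = 0.00234) on the log2 scale. *Ifitm2* fell by 0.61 ± 0.10 in WT (edgeR adjusted p = 7.88e-04) and by 0.95 ± 0.10 in KO (edgeR adjusted p = 3.93e-05). The day 0 and day 3 samples of the 3 Ifitm genes did not overlap in WT or in KO.

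*Isg15* fell in WT by 1.11 ± 0.35 on the log2 scale (edgeR adjusted p = 0.0208), with overlapping samples. This call was lost without WT day 0 replicate 3 (log2 fold change −0.70, edgeR adjusted p = 0.151), WT day 3 replicate 2 (0.0658) or WT day 3 replicate 3 (0.0759). It was also lost without the replicate block (edgeR adjusted p = 0.0673). In KO its log2 fold change was −0.47 ± 0.46 (edgeR adjusted p = 0.411). *Ifit1* had −0.81 ± 0.79 in WT, between −0.22 (without WT day 0 replicate 2) and −1.75 (without WT day 3 replicate 1), and −0.12 ± 0.71 in KO, the latter 1.33 without KO day 0 replicate 3 (edgeR adjusted p = 0.142). *Ifit3*, given without a test, had 1.99 ± 0.96 in WT, between 1.13 (without WT day 3 replicate 1) and 2.73 (without WT day 3 replicate 3), and 0.23 ± 0.53 in KO, or 1.25 without KO day 0 replicate 3. The difference between the KO and WT changes over time, which is made of the KO and WT contrasts and was not tested for these genes, was largest upwards for *Ifit2* (1.14 ± 0.38) and downwards for *Ifit3* (−1.76 ± 1.10). The latter was −0.65 without KO day 0 replicate 3, −0.88 without WT day 3 replicate 1 and −1.10 without WT day 0 replicate 3, and −2.47 without WT day 3 replicate 3.

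**Figure D4:**
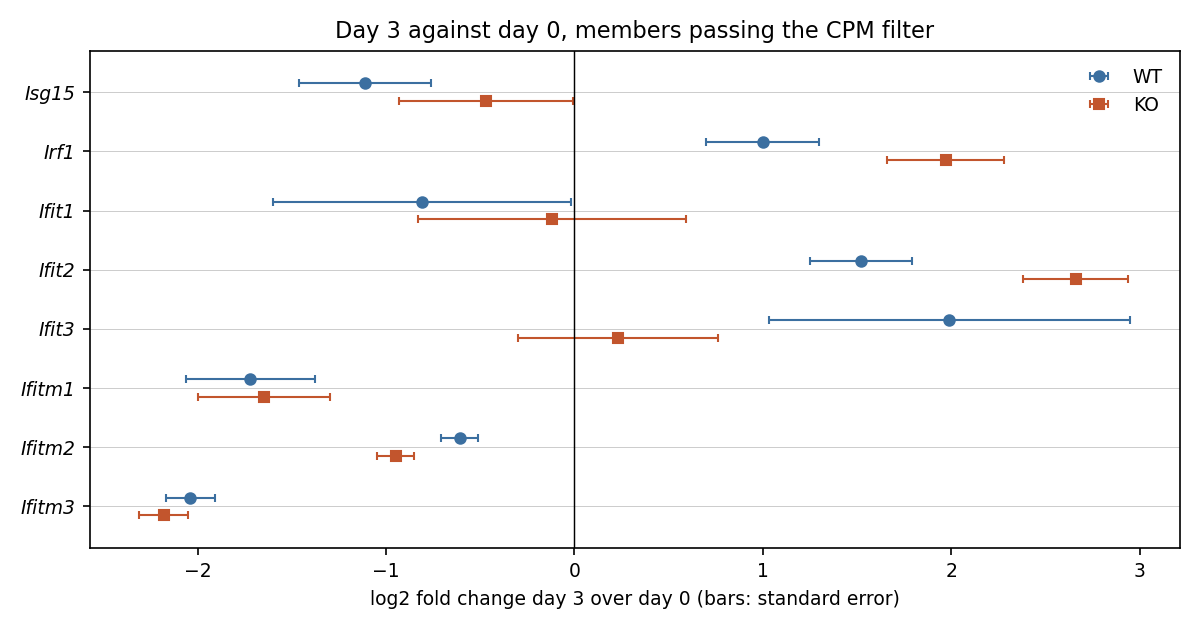
Log2 fold change of day 3 over day 0 (x axis, bars are standard errors, n = 3 per group) in WT (blue circles) and KO (orange squares) for the 8 genes in the fit. *Ifit2* and *Irf1* lie right of 0 and the 3 Ifitm genes left of 0 in both, with *Ifit2* at 1.52 in WT and 2.66 in KO.

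The rest of the response was examined through 57 other interferon-stimulated genes from textbook knowledge, of which 44 were tested. This list and the lists further below were made with earlier results of these data known. Their counts are therefore a description, not a test of lists made beforehand. In KO cells at day 0, 22 of the 44 were lower and 2 higher, beside 10.9% and 9.56% of all tested genes in these directions. Their median log2 fold change was −0.99 beside −0.01 over all tested genes. At day 3, 16 were lower and 3 higher, beside 16.7% and 14.3% of all genes, with a median of −0.60 beside 0.00. *Ifi27*, *Ifih1*, *Rtp4*, *Slfn2*, *Uba7* and *Usp18* are among the 44 and exceeded 1 CPM in WT samples only. In KO cells *Trim30a* barely exceeded 1 CPM, in KO day 3 replicate 3 alone. A lower call of any of these genes is no support for a difference. Of the 24 listed genes with at least 10 counts in every sample, 13 were called at day 0, all of them lower, and 5 were lower and 1 higher at day 3. Of all 12659 genes under this filter, 1488 were lower and 1223 higher at day 0, and 2096 were lower and 1882 higher at day 3. With this filter the list was thus not called more often than all genes at day 3. With single samples left out, 18 to 21 genes were called at day 0, beside 1717 to 2836 of all tested genes. At day 3 the count of 19 was 12 without WT day 3 replicate 1, WT day 3 replicate 3 or KO day 3 replicate 1, and 9 without KO day 3 replicate 3. With a block for the replicate number within each day, since same-numbered WT and KO samples of a day deviated together, more of all tested genes were called (5447 against 3201 at day 0, and 7347 against 4846 at day 3), and 24 and 28 genes of the list were.

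The genes furthest down at day 0 were interferon-inducible GTPases of the guanylate-binding protein family, which attack the vacuoles of pathogens. *Gbp2* had 67.8, 37.0 and 119 CPM in WT day 0 and 7.78, 2.04 and 3.78 CPM in KO day 0, with a log2 fold change of −4.11 ± 0.43 (edgeR adjusted p = 3.33e-04). *Gbp3* fell by 4.24 ± 0.38 (edgeR adjusted p = 1.89e-04) and *Gbp7* by 4.13 ± 0.34 (edgeR adjusted p = 1.03e-04) on the log2 scale. WT day 0 replicate 3, the sample that stood apart by *T*, had the highest value of all 3 genes. The following grouping by role was made after the values were seen. Of 8 listed interferon-inducible GTPases 7 were tested, and 6 were lower at day 0 and 5 at day 3, with log2 fold changes of −4.24 to −1.10 and −2.04 to −0.16, where 10.9% and 16.7% of all tested genes were lower. The 4 PARP and *Dtx3l* genes, whose products act in ADP-ribosylation and ubiquitination, were all lower at day 0 (−1.95 to −1.15), and 1 of them at day 3. Of 5 tested oligoadenylate synthetase genes 1 was higher and 2 lower at day 0 (−2.64 to 1.73), and 1 lower at day 3. Among 6 genes for RNA and Z-nucleic acid binding proteins 2 were lower at day 0 (−2.27 to 0.17) and 1 at day 3, and among 3 TRIM genes 2 and 1.

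Genes for the conjugation of Isg15 could be set beside *Isg15* itself. *Usp18* encodes the protease that removes Isg15 and dampens interferon signalling. It had 0.04995, 0.0568 and 0.291 CPM in KO day 3 against 1.17, 1.20 and 3.05 CPM in WT day 3. Its log2 fold change was −3.71 ± 0.52. *Usp18* exceeded 1 CPM in WT day 3 samples only, so it passed the filter through the group in which it was high. At day 0 it was at 0.0521 to 0.336 CPM in both groups, with overlap. *Herc6*, a ligase for Isg15, and *Uba7*, its activating enzyme, were lower in KO at day 3 as well, and at day 0 *Herc6* was the only one of the 3 called. *Uba7* exceeded 1 CPM in WT day 3 samples only, so the calls of *Usp18* and *Uba7* are no support for a difference. *Ifih1*, a sensor of double-stranded RNA, had 7.55, 3.51 and 4.76 CPM in WT day 3 and 0.500, 0.795 and 0.915 CPM in KO day 3 (log2 fold change −2.85 ± 0.40). *Ifih1* exceeded 1 CPM in WT samples only, so its call is no support for a difference either. *Isg20*, an exonuclease, was lower in KO at day 3 by 2.70 ± 0.46 (edgeR adjusted p = 0.00216) on the log2 scale.

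Among the tested genes of the list, those higher in KO were few. Listed genes under the filter were not tested. Of these, *Ifi44* had 1, 1 and 1 reads in WT day 0 and 6, 2 and 16 in KO day 0. *Ifi204* had 2, 2 and 1 against 2, 4 and 16. *Ifi47* (12, 7 and 18 against 1, 2 and 5) and *Oas1b* (14, 9 and 7 against 6, 3 and 4) went the other way. These 4 genes were named after their values were seen. *Ifit3b* had 2 summed reads in WT day 0 and 31 in KO day 0, 24 of them in KO day 0 replicate 3, and 1 and 22 at day 3. The ratios of these reads were 15.7 (95% exact binomial interval 4.003 to 136) and 22.6 (3.65 to 932), for counting error only, and the log2 fold changes were 3.62 ± 1.14 and 3.99 ± 1.3. *Ifit3b* exceeded 1 CPM in KO day 0 replicate 3 alone, so it passed the filter through the group in which it was high, and its calls in the counts above are no support for a difference. *Oas2*, an oligoadenylate synthetase that activates an antiviral RNase, was higher in KO at day 0 at 4.87, 7.27 and 8.83 CPM against 2.02, 1.93 and 2.22 CPM in WT, a log2 fold change of 1.73 ± 0.32 (edgeR adjusted p = 0.00451). At day 3 *Rsad2*, which encodes the antiviral enzyme viperin, was higher by 1.53 ± 0.46 (edgeR adjusted p = 0.0309) and *Phf11d* by 1.02 ± 0.18 (edgeR adjusted p = 0.00292) on the log2 scale.

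**Figure D5:**
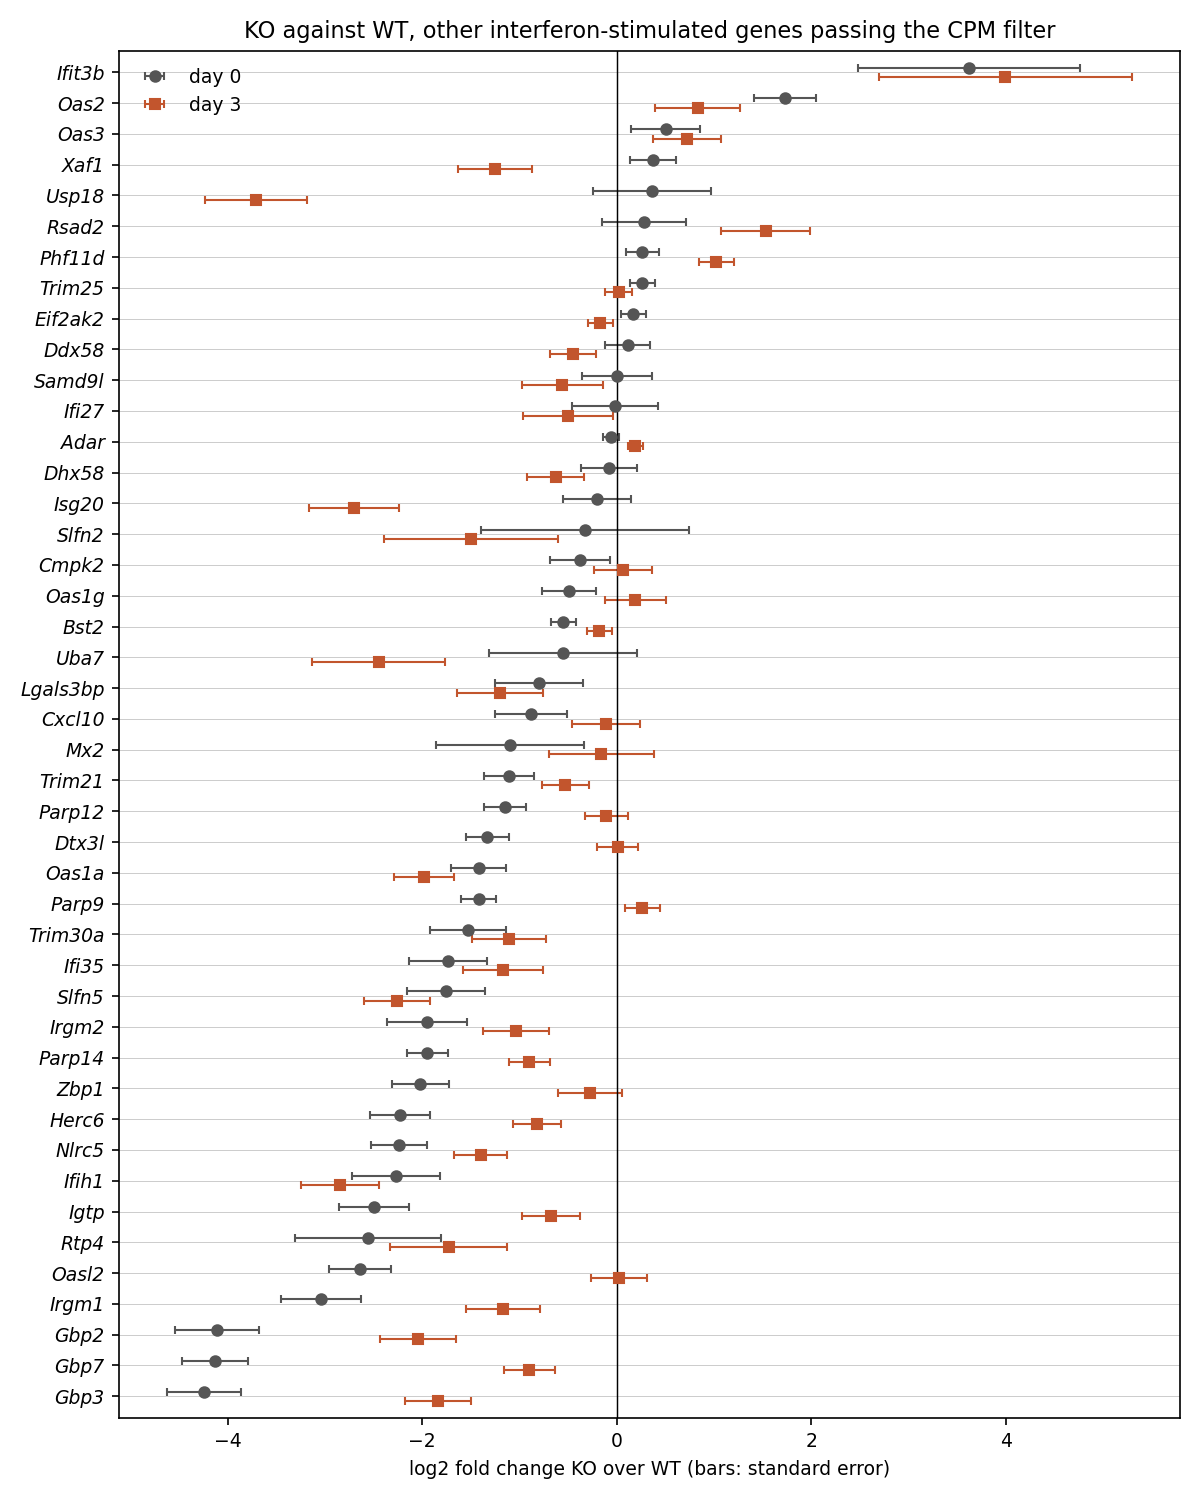
Log2 fold change of KO over WT (x axis, bars are standard errors, n = 3 per group) for the 44 tested genes of the list, ordered by day 0 (grey circles), with day 3 as orange squares. *Gbp3*, *Gbp7* and *Gbp2* lie furthest left at day 0, at −4.24 to −4.11, and *Ifit3b* furthest right on both days.

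Over time, 10 of the 44 genes rose and 17 fell in WT, beside 30.7% and 25.5% of all tested genes, and 13 rose and 11 fell in KO, beside 29.4% and 27.2%. The rise of *Usp18*, which passed the filter through WT day 3 alone, is given without a test. *Usp18* (3.16 ± 0.50), *Slfn5* (1.90 ± 0.33, edgeR adjusted p = 9.24e-04) and *Irgm2* (1.84 ± 0.36, edgeR adjusted p = 0.00180) rose the most in WT on the log2 scale. In KO these were *Gbp7* (3.25 ± 0.34, edgeR adjusted p = 2.96e-05), *Igtp* (3.01 ± 0.36, edgeR adjusted p = 7.51e-05) and *Herc6* (2.91 ± 0.31, edgeR adjusted p = 3.36e-05). *Xaf1*, a gene of cell death, fell the most in both, by 3.98 ± 0.29 in WT (edgeR adjusted p = 5.93e-06) and by 5.60 ± 0.33 in KO (edgeR adjusted p = 9.65e-07). The change over time differed between KO and WT for 15 of the 44 genes, 12 of them with the larger rise or smaller fall in KO, beside 15.5% of all tested genes that differed, 8.21% upwards and 7.34% downwards. *Gbp7* had the largest such difference, 3.24 ± 0.43 (edgeR adjusted p = 0.00164). With single samples left out 6 to 12 of the listed genes were called, beside 1391 to 2397 of all tested genes. The count was 6 without KO day 0 replicate 2, 7 without WT day 3 replicate 3, and 8 without WT day 0 replicate 2, KO day 0 replicate 3 or KO day 3 replicate 2. It was also 8 without the replicate block.

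Of 17 receptor and signalling genes listed and tested, 2 (11.8%, beside 20.4% of all tested genes) were called between KO and WT at day 0, *Tyk2* higher by 0.48 ± 0.13 (edgeR adjusted p = 0.0284) and *Stat2* lower by 0.43 ± 0.13 (edgeR adjusted p = 0.0393) on the log2 scale, in a set with a median of −0.22. At day 3, 6 (35.3%, beside 30.9% of all tested genes) were called, all of them lower, with a median of −0.38. The kinase gene *Jak2* was lower at day 3 by 1.05 ± 0.20 (edgeR adjusted p = 0.00384) and *Socs3*, an inhibitor of the kinases, by 1.17 ± 0.35 (edgeR adjusted p = 0.0303).

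Sensors and other regulatory factors showed single differences. Of 11 tested genes for nucleic acid sensors, adaptors and kinases, 3 (27.3%) were called on each day, beside 20.4% of all tested genes at day 0 and 30.9% at day 3. *Tlr3*, a receptor for double-stranded RNA, was lower in KO at day 0 at 0.728, 0.881 and 0.816 CPM against 2.62, 2.82 and 4.80 CPM in WT (−2.06 ± 0.32, edgeR adjusted p = 0.00230). The kinase gene *Ikbke* was higher in KO at day 0 (1.40 ± 0.41, edgeR adjusted p = 0.0364), and so was the adaptor gene *Myd88* (0.53 ± 0.15, edgeR adjusted p = 0.0362), which was lower at day 3 (−0.56 ± 0.16, edgeR adjusted p = 0.0213). Of the 6 other Irf genes tested, *Irf5* was higher in KO at day 0 (1.53 ± 0.37, edgeR adjusted p = 0.0158) and *Irf2*, a repressor that competes with Irf1, was lower at day 3 (−2.25 ± 0.33, edgeR adjusted p = 9.80e-04). *Irf2* had 4.33, 4.62 and 5.47 CPM in WT day 3 and 1.25, 0.795 and 0.956 CPM in KO day 3. Neither of the 2 other Ifitm genes tested was called between KO and WT on either day (in edgeR's test 1 had an unadjusted p below 0.05 at day 0 and 0 at day 3, and 1 was called at day 0 without the replicate block).

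Interferon transcripts themselves were close to undetected. Over the 21 interferon ligand genes listed, the 12 samples held 3 reads in all, and 19 genes had 0 reads. A count of 0 allows up to 0.126 to 0.172 CPM in a sample, for counting error only.

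The tested genes whose levels ran most like *Ifit3* over the 12 samples, by Pearson's r of log2(CPM + 1), were *Ifit3b* (r = 0.907), *Srgap2* (0.890), *Ldoc1* (0.883), *Zfp125* (0.858) and *F2rl1* (0.855). *Ifit3b* was the only interferon-stimulated gene among these 5, but listed genes under the filter, such as *Ifi44* and *Ifi204*, could not appear. For *Isg15* they were *Tec* (0.936), *Parp14* (0.921), *Kcnj2* (0.911), *Nlrc5* (0.910) and *Lix1* (0.910), of which *Parp14* and *Nlrc5* are in the list of interferon-stimulated genes. *Parp14* had a mean of 26.9 CPM in WT day 0 and 6.97 CPM in KO day 0. These values are a description over samples that share their groups, and *Ifit3b* shares sequence with *Ifit3*.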

How the data were processed

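The authors selected polyadenylated RNA, used cutadapt 1.3 for trimming, STAR 2.4.2a for alignment to GRCm38 and HTSeq 0.6.1 for counting per gene (versions from the submitters' processing notes). The deposited values are whole-number counts per Ensembl gene for each sample, not normalized. Rows that name no gene (46.3% to 51.0% of each file's total) were left out. Of that total 36.5% to 44.1% were alignments of reads placed at several positions, which is not a share of reads. The strand setting of the counting is not given in the sources used here, so overlapping genes may share reads.

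The members and lists were chosen with earlier results of these data known. Genes over 1 CPM in at least 1 of 12 samples (15673) were fitted with edgeR 4.0.16 (quasi-likelihood test, TMM, R 4.3.3), with 4 groups and the replicate number as a block, as the study's methods include a factor for batch. Benjamini-Hochberg adjustment ran over all tested genes, with calls below 0.05. Standard errors came from the log2 fold change and F statistic. Same-numbered WT and KO samples deviated together within a day (r = 0.341 to 0.733 over 6 pairs, 10900 genes) but not across days (mean r = −0.055), so a block within each day was an alternative. Others were no block, limma-voom (limma 3.58.1), DESeq2 1.42.0, RLE size factors, other count filters, a fit of only the compared groups and leaving out each sample. All 9 members are named, and from each other list and contrast up to 3 called genes with the largest change in each direction. Other genes, such as *Herc6* and *Uba7* at day 3, were chosen after their values were seen. Some listed genes are not reported by name here. Promoters came from RefSeq (GRCm38.p6). The model was also run on simulated counts that held planted changes and no other group or replicate effect. Of 100 planted log2 changes of size 2 it recovered 91 to 97 in a contrast. Changes were not planted in genes of few reads, so the run does not cover genes such as *Ifit3* and *Ifit1*.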

Additional observations from a re-analysis of the deposited data

Results flagged for a closer look

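The change from day 0 to day 3 differed between KO and WT cells for 12 named genes, by the test of that difference (edgeR quasi-likelihood, Benjamini-Hochberg adjusted over all tested genes). The log2 difference, KO minus WT, was positive for *Gbp7* (3.24 ± 0.43, edgeR adjusted p = 0.00164), *Oasl2* (2.66 ± 0.43, edgeR adjusted p = 0.00383) and *Gbp3* (2.4 ± 0.50, edgeR adjusted p = 0.0117). *Oasl2* had 11.6, 5.42 and 10.5 CPM in WT day 0 and 1.62, 0.716 and 2.09 CPM in KO day 0, and its groups overlapped at day 3. The log2 difference was negative for *Usp18* (−4.08 ± 0.82), *Isg20* (−2.50 ± 0.58, edgeR adjusted p = 0.0180) and *Xaf1* (−1.62 ± 0.45, edgeR adjusted p = 0.0362). *Usp18* passed the filter through WT day 3 alone, so its call is no support for a difference.

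Among signalling genes the difference was 0.59 ± 0.18 for *Stat2* (edgeR adjusted p = 0.0476), −1.92 ± 0.53 for *Il10rb* (0.0370), −1.77 ± 0.46 for *Socs3* (0.0275) and −0.54 ± 0.13 for *Jak1* (0.0197). For the sensor and adaptor genes it was 1.44 ± 0.43 for *Tlr3* (edgeR adjusted p = 0.0478) and −1.09 ± 0.22 for *Myd88* (0.00946).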

How the results depend on the processing

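The number of genes called between KO and WT at day 0 was 3201, and with a block for the replicate number within each day it was 5447, with only the compared groups 5356, without the replicate block 2640, and 1717 (without WT day 0 replicate 3) to 2836 with 1 sample left out, with 1765 and 1793 without KO day 0 replicates 2 and 3. At day 3 the count was 4846, and 7347 with the block within each day, 4134 without the replicate block and 2907 (without KO day 3 replicate 3) to 4257 with 1 sample left out, with 3161 without KO day 3 replicate 2. For the difference between the KO and WT changes over time it was 2436, and 4889 with the block within each day, 2002 without the block and 1391 (without KO day 0 replicate 2) to 2397 with 1 sample left out, with 1505 and 1507 without KO day 3 replicates 2 and 3. Among the other interferon-stimulated genes, a minimum of 10 counts in every sample, which left 24 of the 44 genes, gave 13 calls at day 0, 6 at day 3, 16 and 15 over time in WT and KO, and 7 for the difference, for which 8 genes were called without the replicate block. With that minimum 2711, 3978, 7089, 7271 and 2198 of all 12659 genes were called, in the same order. With 1 sample left out and the filter of 1 CPM, the counts of the list were 18 to 21, 9 to 18, 19 to 25, 22 to 26 and 6 to 12. The log2 fold change of *Ifit1* over time in KO, −0.12, was −0.74 to 1.33 with 1 sample left out, and it changed sign with the block within each day (0.08), limma-voom (0.03), only the compared groups (0.05), and without KO day 0 replicate 3 (1.33), KO day 3 replicate 1 (0.05) or KO day 3 replicate 3 (0.13). With only the compared groups the calls over time in WT were lost for *Isg15* (edgeR adjusted p = 0.0554) and *Irf1* (edgeR adjusted p = 0.0635). Members under 1 CPM rest on few reads a sample, which limits *Ifit1*, *Ifit3* and *Irf7*, and *Isg15* in KO cells.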
